A study of Mus musculus with 24 samples.

Results

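The comparison described here is that of Tsc2+/- with wild-type (WT) hippocampal slices that had both been given DHPG, and it uses 12 of the 24 libraries of the study, chosen by the genotype and treatment in their labels. There were 3 RNA-seq and 3 ribosome profiling libraries for each genotype. Acute slices came from mice 28 to 42 days old and had been kept for 5 min in 100 µM DHPG (dihydroxyphenylglycine), which activates group I metabotropic glutamate receptors. The other 12 libraries, from vehicle-treated slices of the same genotypes, served as the background and took part in the estimate of the spread. The Tsc2+/- mice were germline heterozygotes, made by crossing mice that carry a CMV-Cre transgene, which is active in the germline, with Tsc2flox mice and breeding the offspring on C57BL/6J. WT mice were their littermates. Slices of several mice were pooled in each library, so a value is an average over mice, and CA3 had been cut off, which enriched the slices for CA1. The methods of the study also describe a dissection of CA1 after the incubation, so other regions are there only as far as they remained. RNA and ribosome-protected fragments (RPFs) came from the same lysates, made with 100 µg/ml cycloheximide, a drug that stalls elongating ribosomes.

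The proteins made from Tsc1, Tsc2 and Tbc1d7 form the TSC complex, which keeps the small GTPase Rheb inactive and thereby restrains the kinase mTOR. As part of mTORC1, mTOR promotes translation, above all of mRNAs that begin with a 5′ terminal oligopyrimidine (TOP) motif, most of which encode ribosomal proteins and translation factors. Stimulation of group I mGluRs with DHPG in hippocampal slices induces a long-term depression (mGluR-LTD) that needs new protein synthesis at synapses. The comparison asks how RNA levels and ribosome occupancy differ between the genotypes shortly after this stimulus.

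The DHPG libraries held 15319292 to 22722699 counts for RNA (n = 6) and 5397053 to 13613673 counts for RPF (n = 6). The biological coefficient of variation, the spread between libraries beyond counting noise, was 7.01% for RNA and 7.04% for RPF. In 4 of the 6 RPF libraries, those of replicates 2 and 3, 97.96% to 98.21% of the counts above 0 were even numbers, against 48.5% to 49.0% in replicate 1, and halving such counts is reported among the alternatives. The RPF totals and coefficient of variation given above use these counts without halving. Xist was at 0 counts in all DHPG libraries of RNA. The 8 markers of CA1 pyramidal neurons were all detected in RNA and RPFs, and so were the 7 of 8 CA3 markers that passed the filter on low counts, although CA3 had been removed.

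Tsc2 was lower in every Tsc2+/- library (chromosome 17, 24595816 to 24632676, GRCm38.p6). Its RNA was at 128.6, 132.6 and 135.1 CPM (counts scaled to a common library size) in Tsc2+/- DHPG replicates 1 to 3 and at 198.7, 202.2 and 214.3 CPM in WT. The groups did not overlap, and the Tsc2+/- mean of 132 ± 3.27 (SD, n = 3) was 64.4% of the WT mean of 205 ± 8.19. Tsc2 RPFs were at 76.5, 83.0 and 84.5 CPM in Tsc2+/- and at 128.0, 122.9 and 145.7 CPM in WT, again without overlap. In log2 terms the RNA differed by -0.64 (SE 0.0544, adjusted p 3.09e-09) and the RPFs by -0.70 (SE 0.0737, adjusted p 1.00e-06) in the quasi-likelihood test of edgeR with Benjamini-Hochberg adjustment. The translational efficiency (TE) of Tsc2, its RPF change minus its RNA change, differed by -0.07 (SE 0.0906, unadjusted p 0.473). Gene counts do not tell which exons the remaining reads came from.

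Across all genes the genotypes differed little. For RNA, the log2 fold changes of the 14516 genes tested had a median of -0.00019, and 90% of them lay between -0.35 and 0.33. In RPFs (12877 genes) the median was -0.0044 and the same share lay between -0.33 and 0.29, while in TE (12785 genes) it lay between -0.39 and 0.36. At an adjusted p under 0.1, 7 RNA genes (0.0482% of those tested) were called, 4 higher (0.0276%) and 3 lower (0.0207%) in Tsc2+/-, 2 RPF genes (0.0155%), 1 in each direction (0.00777% each), and 0 genes for TE (0%). At an unadjusted p under 0.05 there were 686 genes (4.73%) for RNA, 336 of them higher (2.31%) and 350 lower (2.41%) in Tsc2+/-. There were 547 (4.25%) for RPF, 282 higher (2.19%) and 265 lower (2.06%), and 344 (2.69%) for TE, 178 higher (1.39%) and 166 lower (1.3%). The change was above 0 for 49.9% of RNA genes, and 26.8% of RNA and 26.9% of RPF genes moved the same way in all 3 contrasts of same-numbered libraries. The median SE of a log2 fold change was 0.11 for RNA, 0.13 for RPF and 0.17 for TE. It depended on the depth behind a gene. For genes with a mean count of 1000 and over the median SE was 0.062 in RNA (4205 genes) and 0.064 in RPFs (1872 genes), and for those under 50 counts it was 0.43 and 0.34.

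**Figure D1:**
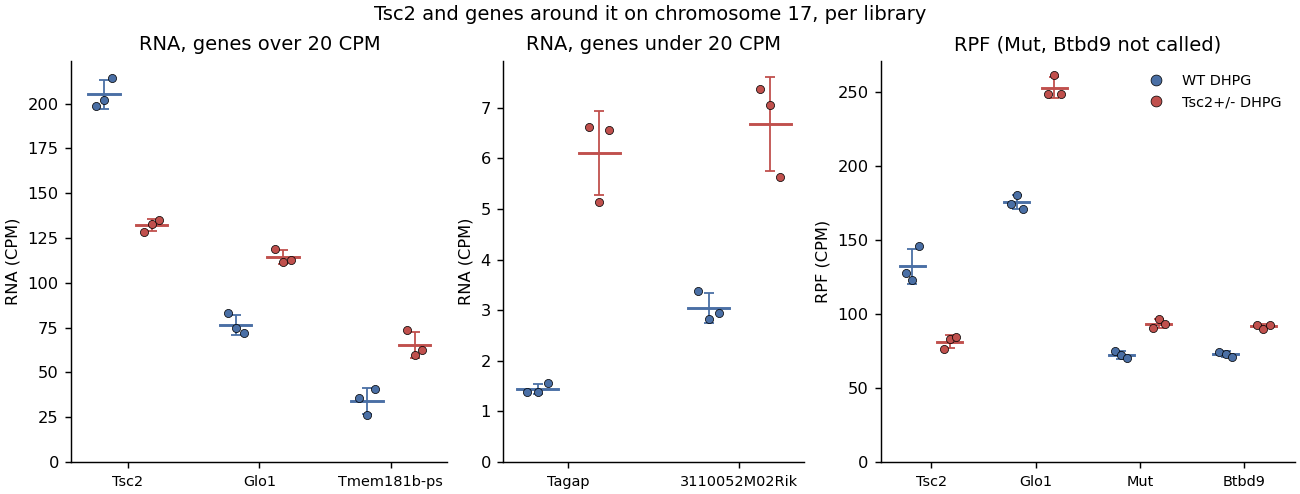
RNA (left and middle) and RPF levels (right) in CPM of Tsc2 and genes of the same chromosome in each DHPG library. Points are libraries, horizontal lines the means and error bars the SD (n = 3), with WT in blue and Tsc2+/- in red. The groups do not overlap for any gene shown. Glo1 RPFs were at 171.3 to 180.5 CPM in WT and at 248.8 to 261.3 CPM in Tsc2+/-.

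Apart from Tsc2, 4 genes were called higher and 2 lower in RNA, and the 4 higher genes all lie on chromosome 17. Glo1 (30592861 to 30612659), which encodes the methylglyoxal-detoxifying enzyme glyoxalase 1, was at 118.6, 111.5 and 112.5 CPM in Tsc2+/- and at 82.9, 74.7 and 71.7 CPM in WT, and its log2 fold change was 0.58 (SE 0.0626 and adjusted p 5.55e-07). Its RPFs rose as well, from 174.2, 180.5 and 171.3 CPM in WT to 248.8, 261.3 and 248.8 CPM in Tsc2+/- (0.53, SE 0.0614, adjusted p 5.17e-06). Glo1 was the one gene apart from Tsc2 called in both assays, and its TE differed by -0.05 (SE 0.0875).

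The transcribed pseudogene Tmem181b-ps (6439002 to 6450994) was at 73.7, 59.9 and 62.6 CPM in Tsc2+/- and at 35.6, 26.3 and 40.6 CPM in WT (0.94, SE 0.0943, adjusted p 9.62e-07). Tagap (7926000 to 7934897), a GTPase-activating protein of T cells, was at 6.61, 5.14 and 6.56 CPM in Tsc2+/- and at 1.39, 1.39 and 1.56 CPM in WT (2.07, SE 0.23, adjusted p 9.62e-07). The gene 3110052M02Rik (21650572 to 21664966), which RefSeq lists as the protein-coding zinc finger gene Zfp983, was at 7.36, 7.06 and 5.63 CPM against 3.37, 2.83 and 2.94 CPM (1.12, SE 0.20, adjusted p 0.00749). For each of these genes the lowest Tsc2+/- library lay above the highest WT library, and all 3 contrasts of same-numbered libraries were positive. Non-overlap of this kind was found for 711 of all RNA genes tested (4.9%) when Tsc2+/- was higher and for 659 (4.54%) when it was lower. Tagap and Tmem181b-ps have close copies nearby with which they may share reads, so the copy that changed is uncertain. The calls of Tsc2, Glo1, Tmem181b-ps and Tagap were kept in all 22 alternative fits of RNA, and those of Tsc2 and Glo1 in all 23 of RPF. The call of 3110052M02Rik was lost without replicate 1 or 2, Tsc2+/- DHPG replicate 2, or WT DHPG replicate 1 or 2, with adjusted p from 0.144 to 0.436.

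Both lower genes rested on few counts. Hbb-bt (chromosome 7), a β-globin gene of red blood cells, had 3, 1 and 0 counts in Tsc2+/- and 34, 29 and 10 counts in WT. Over each group this was 4 against 73 counts, 22.2-fold lower in Tsc2+/- (95% counting interval 8.31 to 83.7, exact binomial, which covers counting error only; adjusted p 0.0104 in edgeR). Duxbl2 (chromosome 14), a member of the double homeobox family, had 0 counts in all 3 Tsc2+/- libraries and 14, 20 and 24 counts in WT. It was at least 23.5-fold lower against a floor of 3 counts over the group (adjusted p 0.0552 in edgeR). Both have near-identical copies. The call of Hbb-bt was lost without replicate 1 or 2, without Tsc2+/- DHPG replicate 1, 2 or 3, and without WT DHPG replicate 1 or 2 (adjusted p 0.147 to 0.436). That of Duxbl2 was lost without replicate 1, 2 or 3, Tsc2+/- vehicle replicate 1, Tsc2+/- DHPG replicate 1, 2 or 3, WT vehicle replicate 3, or WT DHPG replicate 1 or 3 (0.102 to 0.613). With DESeq2 the adjusted p was 0.232 for Hbb-bt and 0.480 for Duxbl2, with ComBat then DESeq2 0.822 and 0.101, and without the replicate block Duxbl2 was at 0.422. Other blood markers also differed between pools. The summed RNA of the 4 blood markers tested, of 8 listed, was 5.04 to 17.7 CPM in Tsc2+/- and 16.3 to 35.2 CPM in WT, which overlap. S100a8 was at 0 counts in every DHPG library of both assays and S100a9 in every one of RNA, Hba-a1 was not analysed here, and no blood marker passed the filter in RPFs. The part of blood left in the pools in the change of Hbb-bt was not tested.

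**Figure D2:**
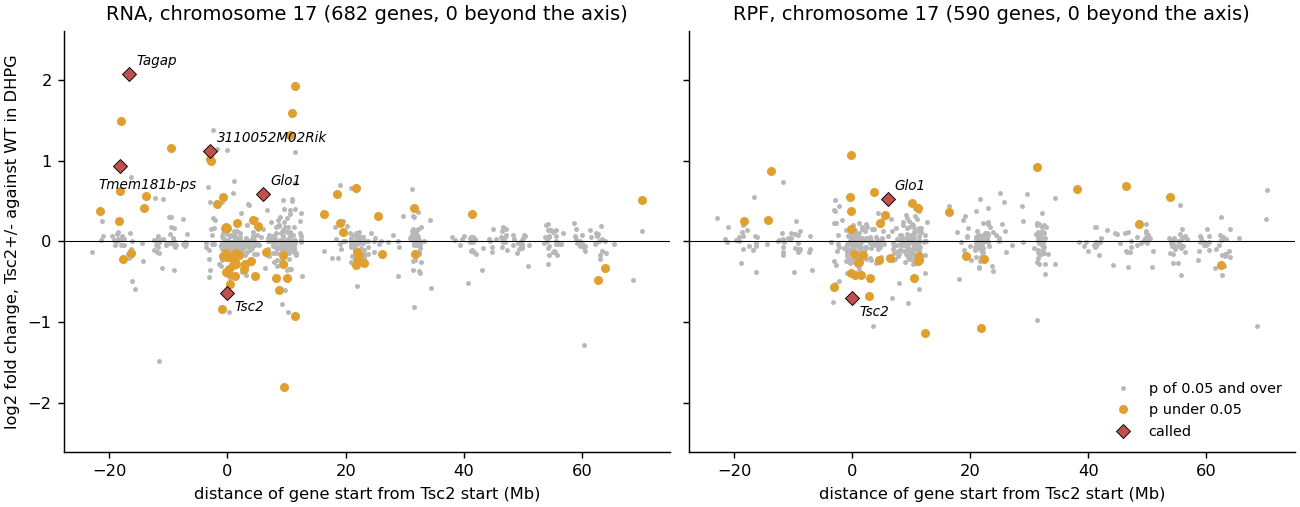
Log2 fold change of Tsc2+/- against WT in DHPG for the genes of chromosome 17, plotted by the distance of their start from that of Tsc2 in Mb, for RNA (681 genes and Tsc2) and RPF (589 genes and Tsc2). Grey points have an unadjusted p of 0.05 and over, orange points one under 0.05, and red diamonds were called. Called genes lie from Tmem181b-ps, far before Tsc2, to Glo1, 5.997 Mb after it, and orange points thin out beyond 30 Mb.

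Genes near Tsc2 differed more often than genes elsewhere. Leaving out Tsc2, 29 of 174 RNA genes that start within 5 Mb of it (16.7%) had an unadjusted p under 0.05, 10 higher and 19 lower, with a median absolute log2 fold change of 0.11. Between 5 and 30 Mb there were 9 of 107 genes (5 to 10 Mb), 18 of 147 (10 to 20 Mb) and 9 of 80 (20 to 30 Mb). Beyond 30 Mb there were 6 of 173 (3.47%), close to the 4.44% of genes on the other chromosomes, which ranged from 2.93% to 6.25% over 19 chromosomes. In RPFs the counts were 17 of 155 genes within 5 Mb (10.97%), 3 of 89, 12 of 112 and 2 of 76 in the next distance ranges, and 6 of 157 beyond 30 Mb, against 4.13% on the other chromosomes. These shares describe the distribution, since neighbouring genes are not independent. Which alleles of neighbouring genes came with the Tsc2 allele was not measured, so loss of Tsc2 and any other difference in this region cannot be told apart here.

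Other genes of chromosome 17 differed without being called. Mut, which encodes the mitochondrial enzyme methylmalonyl-CoA mutase, had RPFs of 90.5, 96.8 and 93.0 CPM in Tsc2+/- and of 75.1, 72.3 and 69.9 CPM in WT (0.36, SE 0.0741, adjusted p 0.128), and its RNA log2 fold change was 0.34 (SE 0.0967). Btbd9, a gene beside Glo1, had RPFs of 92.7, 90.1 and 92.5 CPM against 74.55, 73.05 and 70.94 CPM (0.33, SE 0.0750, adjusted p 0.346). The RNA of Btbd9 overlapped between the groups, with a log2 fold change of 0.06 (SE 0.0596). Dynlt1b, a dynein light chain gene next to Tmem181b-ps, was at 14.0, 12.8 and 17.2 CPM in RNA against 8.865, 10.91 and 8.900 CPM (0.62, SE 0.14, adjusted p 0.110), and Hmga1, a chromatin protein gene, at 71.2, 72.5 and 80.3 CPM against 87.7, 92.4 and 91.5 CPM (-0.28, SE 0.0655, adjusted p 0.236). RPFs of Decr2, a peroxisomal dienoyl-CoA reductase, were at 18.7, 20.2 and 21.2 CPM against 27.1, 27.4 and 26.1 CPM (-0.42, SE 0.12, adjusted p 0.932). The levels given in CPM did not overlap between the groups for any of these 5. In RNA, Tmem181c-ps (1.49, adjusted p 0.269), Tmem181a (0.25, adjusted p 0.372), Lrrc73 (-0.29, adjusted p 0.372), Gm8801 (1.93, adjusted p 0.410) and Zfp760 (1.02, adjusted p 0.463) did not overlap either and were not called. Such non-overlap is common, with 4.9% of all RNA genes tested higher and 4.54% lower in Tsc2+/-. In RPFs the shares were 4.95% and 5.1%. Mut was called in 6 fits of RPF made with other settings, at adjusted p 0.0491 with DESeq2, 0.0979 with only the DHPG groups, 0.0922 with no filter on low counts, 0.0644 with the trend with GC content and length removed, 0.0182 without WT vehicle replicate 1 and 0.0750 without WT vehicle replicate 3.

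Among genes that were not called and lie away from chromosome 17, the RNA with the smallest p was that of Kif5a, a neuronal kinesin heavy chain that carries cargo along microtubules in axons and dendrites. It was at 4709, 5624 and 5049 CPM in Tsc2+/- and at 4243, 4818 and 4373 CPM in WT, which overlap, while each Tsc2+/- library lay above the WT library of the same number (0.19, SE 0.0430, adjusted p 0.121). Its RPFs were at 506, 438.9 and 427.2 CPM against 430.3, 417.5 and 454.3 CPM (0.08, SE 0.0641, unadjusted p 0.251). Prpf39, a splicing factor gene, was at 6.74, 6.05 and 5.67 CPM in Tsc2+/- RNA against 8.93, 9.64 and 9.28 CPM (-0.60, SE 0.15, adjusted p 0.269). Igf2, a growth factor, was at 71.5, 67.4 and 53.2 CPM against 91.0, 77.7 and 70.0 CPM (-0.32, SE 0.0809, adjusted p 0.372), and Gpatch3 RNA differed by -0.86 (SE 0.22, adjusted p 0.372). Fitted on the 6 DHPG libraries alone, 15 RNA genes were called, among them Kif5a (adjusted p 0.00176), Igf2 (0.0479), Hmga1 (0.0817) and Apc, a regulator of Wnt signalling and microtubules (0.25, adjusted p 0.0169). Kif5a was also called once the trend with GC content and length was removed (adjusted p 0.000482).

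The remaining RPFs with the smallest p were L1cam, Eps15 and Iws1 above and Rph3a, Npnt, Ncald and Prorsd1 below 0. L1cam, a neuronal adhesion protein, was at 711, 655 and 657 CPM in Tsc2+/- and at 545, 586 and 584 CPM in WT (0.24, SE 0.0621, adjusted p 0.876). Eps15, an adaptor of clathrin-mediated endocytosis, was at 465, 494 and 473 CPM against 395, 410 and 428 CPM (0.22, SE 0.0538, adjusted p 0.638). Rph3a, the Rab3 effector rabphilin of synaptic vesicles, was at 160, 135 and 166 CPM against 191.5, 181.5 and 177.9 CPM (-0.25, SE 0.0671, adjusted p 0.876), and its RNA log2 fold change was -0.12 (SE 0.0535). Ncald, which encodes the calcium sensor neurocalcin δ, was at 140, 154 and 149 CPM against 174, 162 and 184 CPM (-0.24, SE 0.0676, adjusted p 0.932). Log2 fold changes of the others were 0.40 for Iws1 (SE 0.0974), -0.83 for Npnt (SE 0.23), a matrix protein, and -0.76 for Prorsd1 (SE 0.23). The groups did not overlap for any of the 7. Non-overlap in this direction was found for 637 of all RPF genes tested (4.95%) when Tsc2+/- was higher and for 657 (5.1%) when it was lower, so it is common, and none of the 7 was called.

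For TE, the genes with the smallest p also failed the adjustment, the smallest adjusted p being 0.9998. Higher TE values in Tsc2+/- were measured for Gpr180 (0.72, SE 0.19), Cic, a transcriptional repressor (0.35, SE 0.10), Zfp526 (0.69, SE 0.21), Flna, the actin cross-linker filamin A (0.61, SE 0.18), Tnxb, a matrix protein (0.92, SE 0.28), and Zfyve26 (0.68, SE 0.22). Lower values were measured for Mcts2 (-0.96, SE 0.25), Ppig, a cyclophilin (-0.43, SE 0.12), Zfp62 (-0.73, SE 0.20), Abt1 (-0.62, SE 0.18), Mtap, an enzyme of methionine salvage (-0.73, SE 0.23), and Zfp788 (-0.58, SE 0.18). Their unadjusted p were 0.000411 to 0.00391 in edgeR, and each moved the same way in all 3 contrasts, as did 25.7% of all genes tested.

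The genotype effect in DHPG was set against that in vehicle by the interaction of genotype and treatment. It gave 0 RNA genes (0% of 14516, with 510, 3.51%, at an unadjusted p under 0.05 and a smallest adjusted p of 0.999), 0 RPF genes (0% of 12877, with 494, 3.84%, and 0.996) and 0 TE genes (482, 3.77%, and 0.147) in edgeR. DESeq2 also called 0 RNA and 0 RPF genes. In vehicle alone the genotypes differed by 14 called RNA genes (0.0964%), 3 RPF genes (0.0233%) and 0 TE genes. Glo1, Tagap and Tmem181b-ps had RNA log2 fold changes of 0.53, 2.01 and 0.82 in vehicle, near those in DHPG, and Tsc2 of -0.52. Kif5a was at 0.24 in vehicle and 0.19 in DHPG. The smallest interaction p among RNA genes with a mean count of at least 50 belonged to Gmds, a gene of GDP-fucose synthesis, whose RNA log2 fold change was 0.43 (SE 0.19) in DHPG and -0.68 (SE 0.19) in vehicle. In RPFs it belonged to Npcd (0.22, SE 0.0745, in DHPG and -0.23, SE 0.0730, in vehicle) and then to Bptf, a subunit of a chromatin remodelling complex (0.25, SE 0.0907, and -0.30, SE 0.0901). None of these differences passed the test.

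Members of the TSC and mTOR pathway other than Tsc2 did not pass the test in either assay. Of the 45 genes listed, all tested, 1 (Tsc2) was called in RNA and 1 in RPFs, and the list's medians were -0.027 in RNA and 0.0035 in TE. Tsc1 RNA was at 40.7, 37.8 and 41.6 CPM in Tsc2+/- and at 45.4, 41.2 and 41.3 CPM in WT (-0.08, SE 0.0798). Its RPFs were at 23.3, 22.8 and 23.4 CPM against 20.09, 22.23 and 17.99 CPM, which do not overlap, as for 4.95% of all RPF genes tested in this direction. The RPF log2 fold change of Tsc1 was 0.21 (SE 0.13, unadjusted p 0.109 in edgeR). Tbc1d7 RPFs were at 23.3, 22.1 and 25.0 CPM against 18.8, 20.8 and 21.8 CPM (0.22, SE 0.12, unadjusted p 0.0820). Rheb differed by 0.03 in RNA (SE 0.0690) and -0.04 in RPFs (SE 0.0809), Mtor by -0.03 (SE 0.0615) and 0.01 (SE 0.0715), and Rptor, the mTORC1 scaffold Raptor, by -0.05 (SE 0.0622) and 0.04 (SE 0.0776). The smallest unadjusted p after Tsc2 were those of Rragb in RNA (0.14, p 0.0431, edgeR), a Rag GTPase that recruits mTORC1 to lysosomes, and of the kinase Akt2 in RPFs (-0.23, p 0.0289).

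TOP mRNAs, the class most sensitive to mTORC1, were near 0 in all measures in DHPG. The motif is a C at the first base of the mRNA followed by a run of C and T. In RefSeq's GRCm38.p6 sequences, a C at the annotated start followed by at least 4 bases that are C or T was found for 14 of 58 ribosomal protein genes with a sequence (24.1%), for 4 of 10 further TOP genes (40%) and for 3.01% of all 27025 gene symbols with a sequence. The 4 with the highest RNA level are shown, from 6 bases before the annotated start, with the start C and its run of C and T in capitals, because these bases define the class.
Rps6: tcgggcCTCTTTTTCgtgacgcctccca
Rpl15: agccttCTTCCTTTCCTCTggcggcagc
Nap1l1: tcgggtCTTTTTTagcgccatctgctcg
Eif2s3x: attttcCTTTTCTCTCCgagcaagatgg
These windows are chr4:86857346-86857373 on the minus strand, chr14:18270965-18270992 on the minus strand, chr10:111473221-111473248 on the plus strand and chrX:94212630-94212657 on the minus strand. Where the motif was not found at an annotated start, the sequence says nothing of the true start.

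Rps6, the ribosomal protein that is also a substrate of the mTORC1 pathway, differed by -0.02 in RNA (SE 0.0731), -0.01 in RPFs (SE 0.0601) and 0.01 in TE (SE 0.0962). Rpl15 differed by -0.04 (SE 0.0597), -0.01 (SE 0.0653) and 0.03 (SE 0.0910), Nap1l1 by -0.03, 0.03 and 0.06, and Eif2s3x by -0.04, 0.01 and 0.05 in the same order. Of the 79 cytosolic ribosomal proteins, 79 were tested in RNA and 78 in RPFs and TE. In each of the 3 measures 0 were called and 0 had an unadjusted p under 0.05, with medians of -0.018 in RNA, -0.012 in RPFs and 0.0026 in TE against -4.1e-05, -0.0043 and -0.0022 over the other genes tested. The RPF median was -0.08, 0.04 and -0.01 in the contrasts of replicates 1, 2 and 3, so the replicates did not share a sign. In vehicle the medians were -0.11 in RNA, 0.03 in RPFs and 0.15 in TE. Their summed RNA in vehicle overlapped, at 9531 to 10207 CPM in Tsc2+/- and 9882 to 12022 CPM in WT, highest in WT replicate 3. The interaction with treatment had an unadjusted p under 0.05 in edgeR for 5 members in RNA, 4 in RPFs and 8 in TE. Over all genes tested the shares were 3.51%, 3.84% and 3.77%. In DHPG the 16 other TOP mRNAs had medians of -0.024, -0.0029 and 0.028. Of these, Eif4b, which supports the eIF4A helicase, had the smallest p in TE (-0.23, unadjusted p 0.0219 in edgeR). Of 32 translation initiation factors 0 were called. Eif3b, a core subunit of eIF3, was at 140.7, 137.6 and 123.0 CPM in RPFs of Tsc2+/- and at 113, 113 and 115 CPM in WT (0.23, SE 0.0749, adjusted p 0.9997). Eef2, the elongation factor that moves the ribosome along the mRNA, was at 1248 to 1337 CPM in RNA of Tsc2+/- and 1254 to 1392 CPM in WT (-0.03, SE 0.0445), and in RPFs at 761 to 825 and 802 to 845 CPM (-0.03, SE 0.0506). Its kinase Eef2k differed by -0.0049 in RNA (SE 0.0923) and by -0.02 in RPFs (SE 0.13).

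Group I mGluR signalling genes did not pass the test either: 0 of 31 were called in RNA, RPFs or TE, with medians of 0.0012, -0.04 and -0.01. The receptor gene Grm5, which encodes mGluR5, was at 611, 575 and 565 CPM in RPFs of Tsc2+/- and at 530, 536 and 539 CPM in WT. All 3 Tsc2+/- libraries were above all 3 WT libraries, as for 4.95% of all RPF genes tested. The log2 fold change was 0.13 (SE 0.0591, unadjusted p 0.0398, adjusted p 0.9997 in edgeR), while Grm5 RNA was at 392 to 402 and 375 to 393 CPM (0.04, SE 0.0572). Among the Homer scaffolds, which tie group I mGluRs to the postsynaptic density, Homer1 RPFs were at 98.7 to 105 and 101 to 108 CPM (-0.05, SE 0.0817). Homer2 (-0.32, SE 0.15) and Homer3 (-0.41, SE 0.18) RPFs had unadjusted p of 0.0478 and 0.0317 in edgeR.

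Of the 20 mRNAs whose proteins carry out mGluR-LTD, 0 were called, with medians of 0.0038 in RNA, 0.0021 in RPFs and -0.0022 in TE. Arc, an immediate early gene whose protein drives AMPA receptor endocytosis, had the smallest p in both assays. Arc RNA was at 77.0, 89.0 and 103 CPM in Tsc2+/- and at 93.4, 102 and 110 CPM in WT, and its RPFs at 53.9, 67.7 and 61.6 CPM against 66.0, 77.4 and 75.0 CPM. Both overlap between the groups, but each Tsc2+/- library lay below the WT library of its number (RNA -0.19, SE 0.0633, adjusted p 0.737; RPF -0.25, SE 0.0925, adjusted p 0.9997). Map1b, a microtubule-associated protein made on mGluR stimulation, differed by 0.03 in RNA (SE 0.0566) and 0.17 in RPFs (SE 0.12), and Ptpn5, the phosphatase STEP, by 0.01 (SE 0.0592) and -0.07 (SE 0.0762). Fmr1, whose protein FMRP represses translation of synaptic mRNAs, differed by 0.02 (SE 0.0810) and 0.01 (SE 0.0847), and Camk2a by 0.03 (SE 0.0484) and 0.02 (SE 0.0619). Over all 32 immediate early genes the medians were -0.07 in RNA and -0.05 in RPFs, against 0.0048 and -0.06 in vehicle. In DHPG 22 were below 0 in RNA and 25 in RPFs, and 0 were called. Of all genes tested, 49.9% in RNA and 48.4% in RPFs were above 0. Fos RNA was at 110, 109 and 163 CPM against 126, 122 and 165 CPM (-0.12, SE 0.0640, unadjusted p 0.0729 in edgeR), and replicate 3 stood above the other two in both genotypes. Egr1 differed by -0.08 (SE 0.0595) and -0.03 (SE 0.0649).

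**Figure D3:**
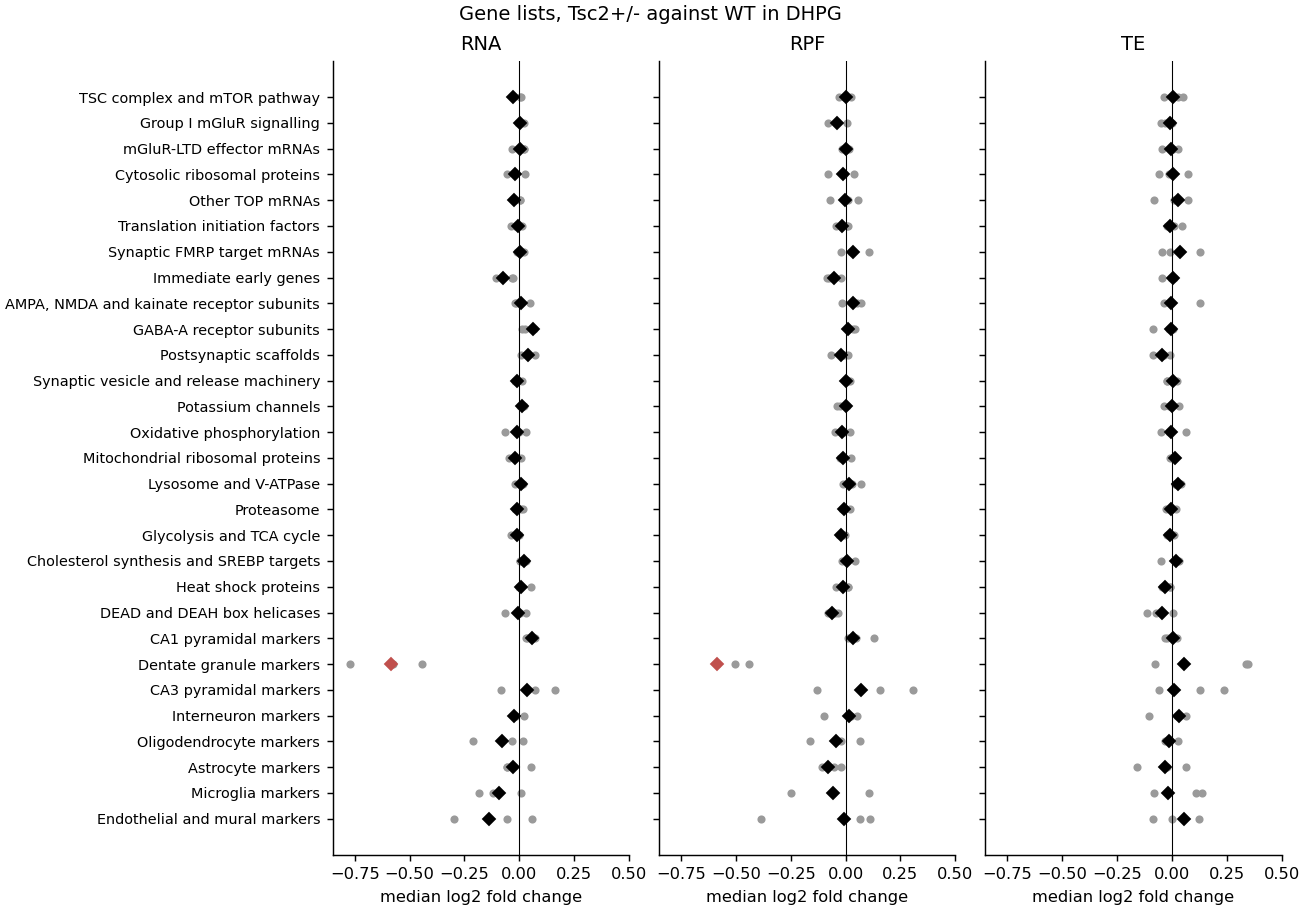
Median log2 fold change of Tsc2+/- against WT in DHPG for 29 gene lists in RNA, RPF and TE. Diamonds are medians of the fit over all replicates, grey points those of the 3 contrasts of same-numbered libraries. The dentate granule markers, in red, are at -0.58 in RNA and -0.59 in RPFs, and every other list shown is between -0.14 and 0.07. Not shown are the blood markers, with an RNA median of -1.25 (4 tested). Also left out are choroid plexus markers (RNA -0.11, RPF 0.09, TE 0.31) and Y-linked and X inactivation genes (0.13, -0.02 and -0.10).

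The 61 synaptic mRNAs listed as targets of FMRP were picked from general knowledge and are not the cross-linking target set that the study used. They held 1 called gene, Tsc2, in each assay. Their RPF median was 0.03, with 43 of 61 above 0, and their TE median 0.04, with 41 above 0, against 48.4% of all RPF genes and 49.4% of all TE genes. The RPF medians of the contrasts were 0.11, 0.02 and -0.02 in replicates 1, 2 and 3, so the sign did not hold over replicates. In RPFs 6 had an unadjusted p under 0.05 and a higher level (Kif5c, Shank2, Nrxn3, Grm5, Apc and Rims1), with log2 fold changes of 0.13 to 0.19 and adjusted p of 0.9997 each in edgeR, where 2.19% of all RPF genes tested had such a p and a higher level. GABA-A receptor subunits and gephyrin, the machinery of fast inhibition, had an RNA median of 0.06 and an RPF median of 0.01. Above 0 were 11 of 13 in RNA and 8 of 13 in RPFs, against 49.9% and 48.4% of all genes tested. None of the 13 was called. Gabra2 RNA, at 88.1, 126 and 111 CPM in Tsc2+/- and 91.2, 106 and 86.9 CPM in WT, had the smallest p of them (0.19, SE 0.0756, unadjusted p 0.0166 in edgeR).

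Excitatory synapse genes showed the same small sizes. The 19 of 20 AMPA, NMDA and kainate receptor subunits tested had medians of 0.0093 in RNA and 0.04 in RPFs, and the smallest p in RNA was that of Grin2d, an NMDA receptor subunit of interneurons, at 16.8, 15.6 and 13.3 CPM against 20.3, 19.1 and 17.3 CPM (-0.32, SE 0.11, adjusted p 0.840). The 25 postsynaptic scaffolds had medians of 0.04 in RNA and -0.02 in RPFs. Dlg4, which encodes PSD-95, differed by -0.03 (SE 0.0465) and 0.04 (SE 0.0561), Shank3 by 0.04 (SE 0.0608) and -0.08 (SE 0.0882), and Nlgn1, a postsynaptic adhesion protein, by 0.17 in RNA (SE 0.0636, adjusted p 0.919). The 31 vesicle and release genes had medians of -0.01 and 0.0020, and the 42 potassium channels of 0.01 and 0.0011. Nrsn1 differed by 0.04 in RNA (SE 0.0512) and 0.05 in RPFs (SE 0.11). Taking the 21 pathway and family lists as a whole, 780 genes, 31 of 779 tested in RNA (3.98%) and 31 of 778 in RPFs (3.98%) had an unadjusted p under 0.05, below the 4.73% and 4.25% of all genes tested.

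The summed levels of the markers of dentate granule cells did not overlap between the genotypes in either assay, while 0 of the 8 markers were called. With an unadjusted p under 0.05 and a lower level in Tsc2+/- there were 4 of 8 in RNA and 3 of 8 in RPFs (edgeR), against 2.41% and 2.06% of all genes tested. The marker list was written with earlier results of these data known, so these counts are descriptive and no independent test. In bulk slices, fewer cells of a type and less RNA per cell cannot be told apart. The summed RNA of the 8 markers was 55.4, 63.7 and 55.1 CPM in Tsc2+/- DHPG and 77.0, 82.2 and 86.7 CPM in WT DHPG, and the summed RPFs were 69.3, 71.4 and 70.1 CPM against 85.8, 94.3 and 88.4 CPM. In each assay the highest Tsc2+/- sum lay below the lowest WT sum. In vehicle the sums overlapped, at 64.7 to 74.0 CPM in Tsc2+/- and 63.0 to 92.0 CPM in WT for RNA, and at 84.0 to 89.9 and 77.2 to 116.5 CPM for RPFs. The median log2 fold changes in vehicle were also below 0, at -0.21 in RNA and -0.22 in RPFs. Below 0 in DHPG were 8 of 8 markers in RNA and 7 of 8 in RPFs. Of all genes tested, 49.9% in RNA and 48.4% in RPFs were above 0. The median log2 fold change of the markers in DHPG was -0.58 in RNA and -0.59 in RPFs. Over alternative fits it was -0.75 to -0.36 in RNA and -0.76 to -0.31 in RPFs. In the contrasts of replicates 1, 2 and 3 the RNA median was -0.77, -0.58 and -0.44. For TE it was 0.05.

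**Figure D4:**
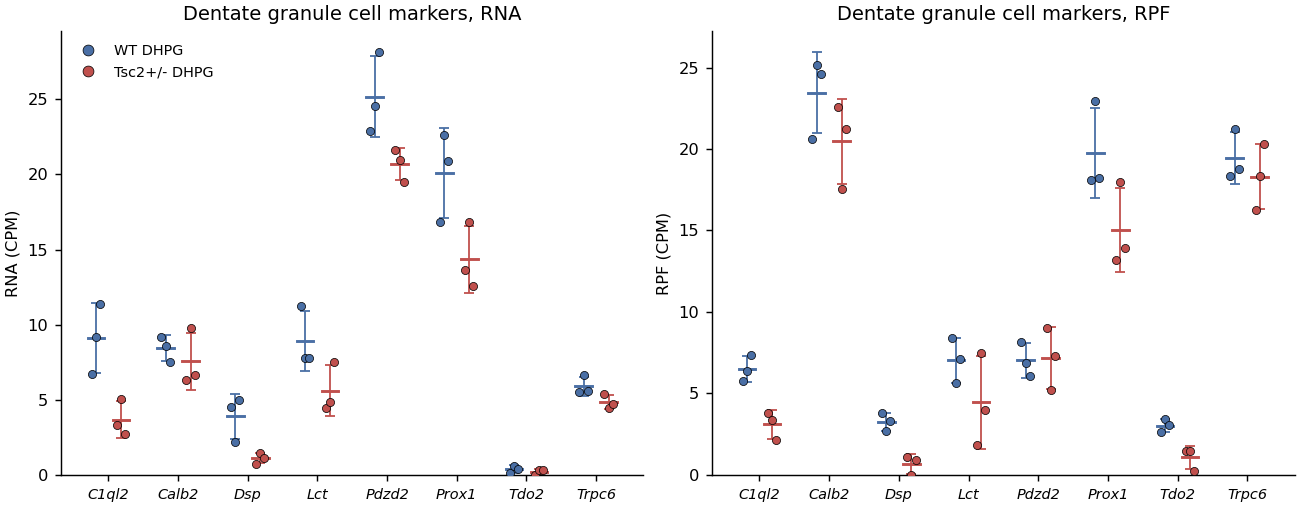
RNA (left) and RPF levels (right) in CPM of the 8 dentate granule cell markers in each DHPG library. Points are libraries, horizontal lines the means and error bars the SD (n = 3), with WT in blue and Tsc2+/- in red. C1ql2 and Dsp do not overlap between the genotypes in either assay, and Calb2 overlaps in both.

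None of the 8 markers was called on its own. Prox1, the transcription factor that specifies granule cells, was at 13.6, 16.9 and 12.6 CPM in RNA of Tsc2+/- and at 16.8, 22.6 and 20.9 CPM in WT (-0.50, SE 0.12, adjusted p 0.239), and its RPFs were at 13.2, 17.95 and 13.9 CPM against 18.1, 23.0 and 18.2 CPM (-0.40, SE 0.14). C1ql2, a synaptic organizer of mossy fibres, was at 3.31, 5.04 and 2.70 CPM against 6.75, 9.20 and 11.4 CPM in RNA (-1.36, SE 0.32, adjusted p 0.540), and Dsp, the desmosomal protein desmoplakin, at 0.749, 1.44 and 1.15 CPM against 4.499, 2.216 and 4.971 CPM (-1.87, SE 0.50, adjusted p 0.721). Dsp RPFs were at 1.11, 0 and 0.944 CPM against 3.79, 2.69 and 3.29 CPM (-2.02, SE 0.50, adjusted p 0.638). Lct RNA was at 4.45, 4.85 and 7.535 CPM against 11.25, 7.756 and 7.764 CPM (-0.66, SE 0.30). The other 4 had RNA log2 fold changes of -0.89 (Tdo2, under 1 CPM throughout), -0.30 (Pdzd2), -0.29 (Trpc6) and -0.15 (Calb2). Fitted on the 6 DHPG libraries alone, C1ql2 (adjusted p 0.0111) and Dsp (0.0346) were called in RNA, and Prox1 (0.0916) after removal of the trend with GC content and length. The interaction with treatment gave unadjusted p of 0.0580 for C1ql2, 0.0579 for Dsp and 0.263 for Prox1 in RNA (edgeR). It was under 0.05 for 1 of 8 markers in RNA (Lct, 0.0404) and for 3 of 8 in RPFs (Dsp, 0.0319; Tdo2, 0.0277; Pdzd2, 0.0298), against 3.51% and 3.84% of all genes tested. The interaction was below 0 for Lct, Dsp and Tdo2 and above 0 for Pdzd2, and 0 markers passed the adjustment.

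The markers of other cell types overlapped between the genotypes in their summed levels. CA1 markers summed to 1847 to 1873 CPM in RNA of Tsc2+/- and 1812 to 1836 CPM in WT, the exception without overlap, and to 1236 to 1341 and 1228 to 1268 CPM in RPFs, with medians of 0.06 and 0.03 and 0 of 8 called. CA3 markers summed to 197 to 208 and 170 to 226 CPM in RNA (median 0.04, 7 of 8 tested) and interneuron markers to 978 to 1024 and 1016 to 1029 CPM (-0.03). Medians were -0.08 in RNA and -0.04 in RPFs for oligodendrocyte markers, -0.03 and -0.08 for astrocyte markers, -0.09 and -0.06 for microglia markers, and -0.14 and -0.0085 for endothelial and mural markers, with 0 of 8 called in each list and assay. Choroid plexus markers, of which 3 of 8 were tested in RNA, summed to 16.1 to 20.6 CPM in Tsc2+/- and 17.8 to 21.7 CPM in WT, with Otx2 at 0 counts in every DHPG library of both assays. The part of the dissection of the slices in the values of the dentate markers was not tested.

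RPF changes depended on the length of the coding sequence in a way that differed between replicates. Genes with at least 4000 coding nucleotides (829 genes with a mean count of at least 50) had a median RPF log2 fold change of 0.11 in the contrast of replicate 1, 0.02 in that of replicate 2 and -0.05 in that of replicate 3. Genes under 500 nucleotides (804 genes) were at -0.06, 0.01 and 0.02. RNA medians of the same classes stayed between -0.02 and 0.02 in all 3 contrasts. Across 10264 genes, which are not independent replicates, Spearman's correlation of the RPF change with coding length was 0.29, 0.04 and -0.09 in the contrasts of replicates 1, 2 and 3.

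**Figure D5:**
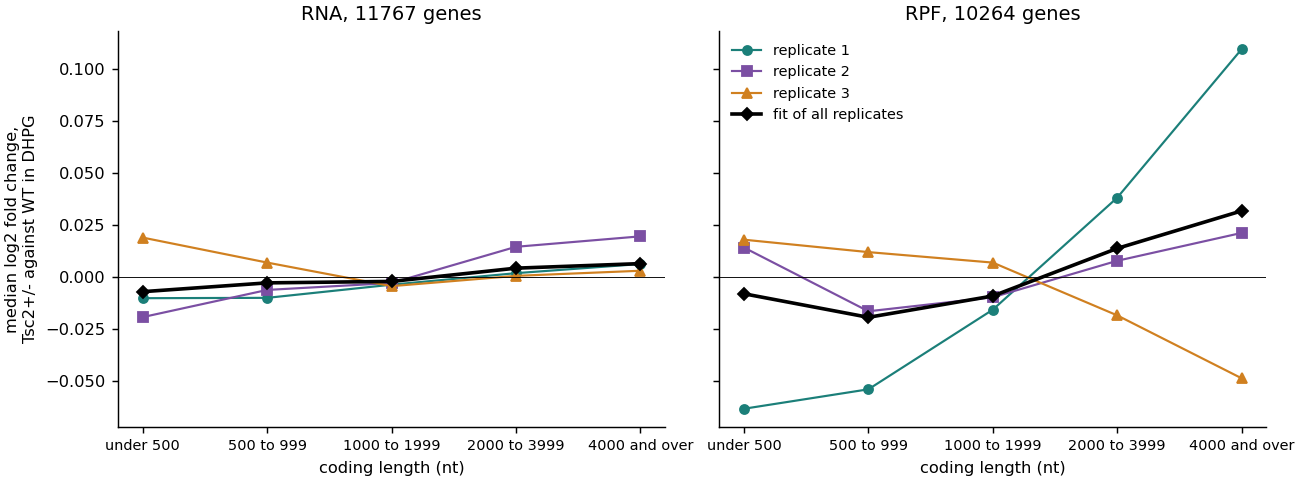
Median log2 fold change of Tsc2+/- against WT in DHPG by coding length in nucleotides, for RNA (left) and RPF (right) genes with a mean count of at least 50. Coloured lines are the 3 contrasts of same-numbered libraries and the black line is the fit over all replicates. In RPFs the line of replicate 1 climbs to 0.11 for the longest class while that of replicate 3 falls to -0.05.

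Leaving out replicate 3, the 2 RPF calls became 47, 43 higher and 4 lower in Tsc2+/-, which included Tsc2 and Glo1. Of the 47, 19 (40.4%) had 4000 coding nucleotides or more, against 7.77% of the RPF genes tested. The 43 higher genes were called on replicates 1 and 2, so high values there follow from the choice. They had a median log2 fold change of 0.54 in replicate 1, 0.31 in replicate 2 and -0.06 in replicate 3, and 29 of the 43 were below 0 in replicate 3. They held genes of spectrins, which form the membrane skeleton, among them Sptbn1, Sptb and Sptan1, and large cytoskeletal linkers such as Dst and Ahnak, named after their values were seen. Sptbn1 was at 0.69 in replicate 1, 0.47 in replicate 2 and -0.12 in replicate 3, with adjusted p 6.13e-05 without replicate 3 and 0.9997 with it in edgeR. Fat1, a giant cadherin, was at 0.76, 0.49 and -0.14, and Map1b at 0.37, 0.22 and -0.07. With the trend with GC content and length also removed, an alternative chosen after seeing the data, 65 genes were called without replicate 3, 46 of the 47 among them. In TE, Sptbn1, Fat1 and Sptb were called without replicate 3 and 0 genes with all replicates.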

How the data were processed

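RNA-seq and ribosome profiling were carried out on pooled hippocampal slices, with 3 libraries per genotype, treatment and assay, grouped by the labels. The authors trimmed reads, removed those matching rRNA and tRNA, mapped the rest to mm10 with TopHat2, removed duplicates by molecular identifiers and counted per gene with RSEM. The deposited values are expected counts, used here as whole numbers, over whole transcripts for RNA (poly(A)-selected, directional libraries) and over coding sequences with both ends cut off for RPF. The submitters' processing notes also name Bowtie2, cutadapt and DESeq2. In RNA, 27 genes carry a date as name. There were 0 columns without a sample.

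Genes were kept with filterByExpr at a minimum count of 10, scaled by TMM and tested in R 4.3.3 with the quasi-likelihood F test of edgeR 4.0.16 (robust, two-sided, legacy off) on the 12 libraries of each assay. Group and replicate number were the terms. TE was the interaction of assay and group over 24 libraries. The Benjamini-Hochberg adjustment ran over all genes tested, and an adjusted p under 0.1 was called. Each SE came from the F statistic, and the prior count for log2 CPM was 2. P-values measure the spread between pools of slices. The procedures were tested on simulated counts.

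The replicate number was taken to be the batch that the study corrected, which the labels do not say. Deviations of same-numbered Tsc2+/- and WT DHPG libraries from their group means correlated at 0.14 to 0.17 in RPFs and 0.043 to 0.16 in RNA. For different numbers the range was -0.11 to -0.042 in RPFs and -0.15 to 0.057 in RNA, where it overlaps that of same numbers. Deviations sum to 0 within a group, so the ranges of same and different numbers are not independent.

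Named were Tsc2, all called genes, per measure the 6 higher and 6 lower genes with the smallest p that moved one way in 3 of 3 contrasts with a mean count of at least 50, 21 genes of the pathway (1 of them is not reported here), and per list the 2 most abundant members and those with the smallest p. Other genes, such as the 4 TOP examples, Homer2, Gmds, the spectrins and several dentate granule markers, were named after their values were seen. The comparison, the 32 gene lists and this rule were chosen with earlier results of these data known. Positions came from RefSeq (GRCm38.p6, the build of mm10) for 99.5% of RNA and 99.8% of RPF genes tested, and coding lengths from GENCODE M21. Alternatives were no replicate block, leaving out each replicate number or library, other scaling (RLE), no filter, DESeq2 1.42.0, ComBat (sva 3.50.0) then DESeq2, an adjusted p under 0.05, only the DHPG groups, removal of the trend with GC content and length, halved even counts and lysate as a block.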

Additional observations from a re-analysis of the deposited data

How the results depend on the processing

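The calls of Tsc2 and Glo1 in RNA and RPFs and of Tagap and Tmem181b-ps in RNA were kept in all alternative fits. The number of RNA genes called (7) was 15 with only the DHPG groups and 12 after removal of the trend with GC content and length, and the number of RPF genes called (2) was 4 with either and also 4 with no filter on low counts. TE called 0 genes and 1 with lysate as a block (Pcdha6-g). With the trend removed and replicate 3 left out, a setting chosen after seeing the data, 65 RPF and 5 TE genes were called. The RPF interaction of genotype and DHPG gave 1 gene with no filter on low counts. Leaving out replicates or libraries gave 4 to 11 RNA, 2 to 47 RPF and 0 to 3 TE genes for genotype in DHPG, and 0 to 2 RNA and 0 to 2 RPF genes for the interaction. The lowest RNA count was that without Tsc2+/- DHPG replicate 2, the highest RNA, RPF and TE counts (11, 47 and 3) were those without replicate 3. RPF calls numbered 4 without replicate 2, Tsc2+/- DHPG replicate 1 or WT DHPG replicate 2, 7 without WT vehicle replicate 1 and 6 without WT vehicle replicate 3, and TE called 1 gene without WT DHPG replicate 2 of RPF. Without the replicate block 6 RNA, 2 RPF and 0 TE genes were called, and Duxbl2 was the call it lost. Halving the even counts left 2 RPF calls. The cause of these shifts was not tested. Of 2504 list medians recomputed, 2382 moved by less than the SD over the 3 contrasts. Depth limits what could be seen: under 50 counts the median SE of a log2 fold change was 0.43 in RNA and 0.34 in RPFs.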

Other observations

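Several groups of housekeeping genes were measured and held no called gene. Oxidative phosphorylation subunits (75 genes) had medians of -0.01 in RNA, -0.02 in RPFs and -0.0031 in TE, mitochondrial ribosomal proteins (76 genes) of -0.02, -0.01 and 0.02, proteasome subunits (34 genes) of -0.01, -0.0062 and -0.0038, and glycolysis and TCA cycle enzymes (34 genes) of -0.01, -0.02 and -0.01. Lysosomal and V-ATPase genes (51 genes) had medians of 0.0082, 0.01 and 0.03, and cholesterol synthesis genes and SREBP targets (29 genes) of 0.02, 0.0044 and 0.02. The 45 DEAD and DEAH box helicases, which unwind RNA, had an RPF median of -0.06 with 14 above 0 and 31 below, where 48.4% of all RPF genes tested were above 0, and 3 had an unadjusted p under 0.05 in edgeR, Ddx46 and Ddx54 below and Ddx55 above 0.

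Among the 26 heat shock proteins, RPFs of 2, both chaperones of the endoplasmic reticulum, were higher in every Tsc2+/- library than in every WT library, and those of 3 (Cryab, Hspd1 and Hspa12a) were lower, where 4.95% and 5.1% of all RPF genes tested did so. None passed the adjustment. Hspa5, the chaperone BiP, was at 1374, 1351 and 1471 CPM in Tsc2+/- and at 1254, 1209 and 1289 CPM in WT (0.16, SE 0.0447, adjusted p 0.932 in edgeR, and 0.0950 without WT vehicle replicate 1). Hsp90b1, its partner GRP94, was at 990, 1015 and 1020 CPM against 951, 920 and 942 CPM (0.10, SE 0.0466, unadjusted p 0.0327 in edgeR). The cytosolic chaperone genes Cryab (-0.24, SE 0.0842) and Dnajb1 (-0.18, SE 0.0839) had RPF values below 0.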
